A study of Mus musculus with 2 samples.

Results

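The antigen receptor loci examined here were 4 stretches of the mouse genome (build GRCm38): the immunoglobulin heavy chain locus Igh (chr12:113200000-116000000), the kappa light chain locus Igk (chr6:67500000-70750000), the T-cell receptor alpha and delta locus Tcra/Tcrd (chr14:52400000-54250000) and the T-cell receptor beta locus Tcrb (chr6:40850000-41600000). The members were chosen by position only, as every listed site of any motif between these coordinates. They were 1069 of 1016209 listed sites in undifferentiated cells and 1137 of 1108689 in differentiated cells, or 1449 of 1370254 positions over both. Igh held 360 and 437 of them, Igk 293 and 305, Tcra/Tcrd 294 and 290, and Tcrb 122 and 105.

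In developing lymphocytes these loci are cut and rejoined by the RAG recombinase, so that 1 variable (V) segment is joined to a joining (J) segment, in the heavy, beta and delta chains with a diversity (D) segment between them, upstream of the constant region exons. Each locus is a long array of V segments, many of them close copies of each other, followed by J segments, with D segments before them in all but Igk, and by a compact constant region. Cells outside the lymphoid lineages keep the loci unrearranged and do not use their V segments, and their DNA there is generally described as methylated.

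The cells were F9, an embryonal carcinoma line from a mouse teratocarcinoma, profiled in the undifferentiated state and at day 4 of differentiation induced with 1 µM retinoic acid in low-attachment dishes. There was 1 library per state, both from the same line, and the text note of each library carries the word untreated without saying with what. No difference below therefore has a replicate check, and each test compares 2 libraries, not 2 conditions. The assay, methylRAD, cuts genomic DNA with FspEI, an enzyme that needs a methylated cytosine, and counts the fragments of about 30 bp released around CCGG sites (methylated at a CpG) and CCAGG or CCTGG sites (methylated outside a CpG). The libraries held 20550450 (undifferentiated) and 21291239 (differentiated) listed counts, with no value under 5. A site that is not listed may be unmethylated, may lack the motif in the genome of these cells, or may lie where reads were not placed, and these cannot be told apart. Intervals cover counting error only, since sequencing reads without molecular identifiers are not independent molecules.

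Few annotated promoters in the loci could report CpG methylation in this assay. Of 30 RefSeq promoter windows of 300 bases inside the loci (build GRCm38.p6), 5 held a CCGG, or 16.7%, against 52.8% of 32851 windows in the whole table. The search was for the letters CCGG, which read the same on both strands. None of the 30 windows was that of a V, D, J or constant gene, so the promoters of those segments were not examined. The sequences are shown because they are the stretches where the starts of other genes in the loci and the assay meet. The first 4 give the 250 bases before the annotated start site, on the strand of the gene, and the fifth gives 30 bases around a CCGG that begins at base 7 of the transcript. The CCGG of 1700074P13Rik lies before the start site used for its window but inside the annotated span of that gene. Capitals mark CCGG, CCAGG and CCTGG.
Gm46962 (chr6:70220705-70220954, minus strand): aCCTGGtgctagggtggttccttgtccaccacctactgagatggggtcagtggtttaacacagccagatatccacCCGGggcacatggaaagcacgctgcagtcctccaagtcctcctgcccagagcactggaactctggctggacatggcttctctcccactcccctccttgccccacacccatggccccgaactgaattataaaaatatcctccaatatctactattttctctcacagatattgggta
1700074P13Rik (chr6:40940558-40940807, minus strand): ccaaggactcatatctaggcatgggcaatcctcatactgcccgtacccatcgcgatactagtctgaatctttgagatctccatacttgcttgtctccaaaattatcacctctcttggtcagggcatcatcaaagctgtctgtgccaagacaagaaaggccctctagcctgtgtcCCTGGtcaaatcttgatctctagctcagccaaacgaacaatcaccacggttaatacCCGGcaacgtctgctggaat
Try4 (chr6:41302022-41302271, plus strand): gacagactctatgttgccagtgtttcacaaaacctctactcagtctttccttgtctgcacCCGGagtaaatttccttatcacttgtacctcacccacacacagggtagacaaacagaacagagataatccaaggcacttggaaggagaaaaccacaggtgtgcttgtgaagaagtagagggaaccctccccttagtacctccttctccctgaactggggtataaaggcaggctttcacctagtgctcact
Gm30392 (chr14:53961653-53961902, minus strand): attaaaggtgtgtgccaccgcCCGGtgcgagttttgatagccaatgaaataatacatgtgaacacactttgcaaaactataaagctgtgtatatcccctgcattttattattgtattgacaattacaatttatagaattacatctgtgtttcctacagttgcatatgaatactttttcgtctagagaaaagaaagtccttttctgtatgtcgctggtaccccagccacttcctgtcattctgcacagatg
Olfr1509 (chr14:52450386-52450415, plus strand): atccccagatcctCCGGaacgctcattaga
The CCGG of Gm46962, a non-coding RNA gene inside Igk, was listed with 44 counts in undifferentiated and 42 in differentiated cells. That of Olfr1509, an olfactory receptor gene among the first V segments of Tcra/Tcrd, had 24 and 20 counts, and that of 1700074P13Rik, between Trbv1 and Trbv2 in Tcrb, had 11 and 8. The CCGG of the trypsinogen gene Try4 and that of Gm30392 were listed in neither library. Thus 3 of the 5 were listed, and none of the 3 differed between the libraries by more than 4 counts. In the rest of chromosomes 6, 12 and 14, 803 of 5123 promoter CCGG sites were listed, or 15.7%. None of the 7 promoter windows in Igh held a CCGG, and none of them was that of a segment or constant gene. Of the 25 CCAGG or CCTGG motifs in these windows, 1 was listed, in the 1700074P13Rik window, with 5 counts in differentiated cells.

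All 4 loci held fewer listed CCGG sites per Mb than the rest of their chromosomes, in both libraries. Igh, 2.8 Mb long, had 240 CCGG sites in undifferentiated and 228 in differentiated cells, or 85.7 per Mb (95% exact Poisson interval 75.2 to 97.3) and 81.4 per Mb (71.2 to 92.7). The rest of chromosome 12 had 276 and 264 per Mb, 3.22-fold and 3.24-fold more. Igk, 3.25 Mb long, had 241 and 223 CCGG sites, or 74.2 (65.1 to 84.1) and 68.6 (59.9 to 78.2) per Mb, against 252 and 236 in the rest of chromosome 6, which is 3.40-fold and 3.44-fold more. These were the lowest densities of the 4. Tcra/Tcrd, 1.85 Mb long, had 117 (102 to 133) and 103 (88.6 to 118) per Mb, 1.93-fold and 2.03-fold below the rest of chromosome 14. Tcrb, 0.75 Mb long, had 120 (96.5 to 148) and 103 (81 to 128) per Mb, 2.10-fold and 2.3-fold below the rest of chromosome 6. In every locus the interval lay below the value of the rest.

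Such densities also occurred elsewhere on these chromosomes. The rest of each chromosome was divided into consecutive stretches of the length of the locus. Of 40 such stretches on chromosome 12, 1 had a lower CCGG density than Igh in each library, and of 42 on chromosome 6, 3 were below Igk. Tcra/Tcrd was less extreme, with 17 and 20 of 64 stretches of chromosome 14 below it. For Tcrb, 51 of 189 stretches of chromosome 6 were below it in each library. At these coordinates Igh and Igk thus stood near the lower end of their chromosomes, and the T-cell receptor loci did not. The gap depended on the edges. With both edges moved in by 100 kb, Tcra/Tcrd had 0.393 and 0.371 of the density of the rest, in place of 0.519 and 0.492. Tcrb had 0.361 and 0.301, in place of 0.476 and 0.435. Igh and Igk then had 0.265 and 0.27, and 0.276 and 0.274. Ranks were not recomputed there, and stretches of unlike length make the ranks of different loci hard to compare.

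**Figure D1:**
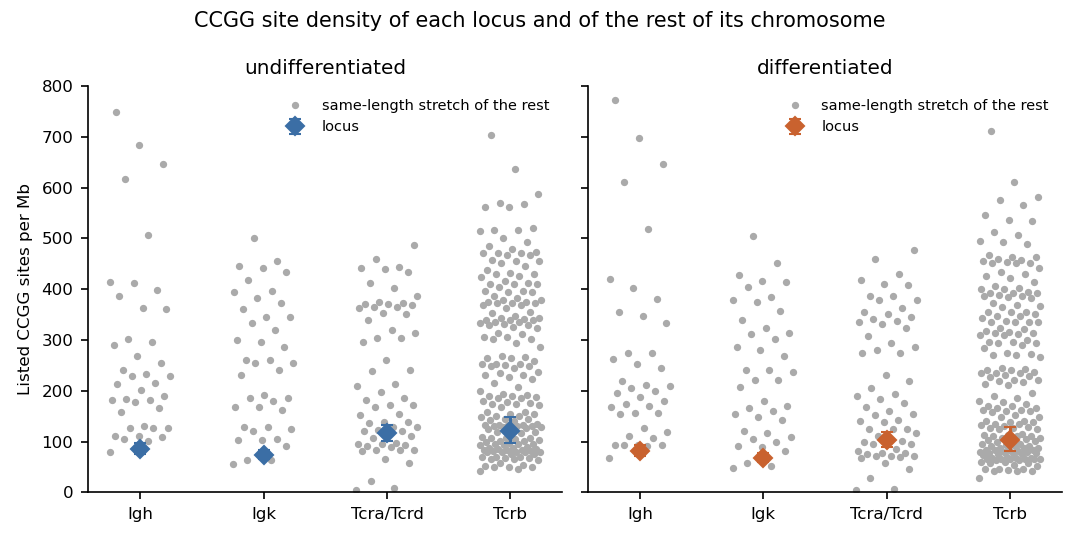
Listed CCGG sites per Mb (y axis) in each locus (diamonds, with 95% exact Poisson intervals) and in consecutive stretches of the same length from the rest of its chromosome (grey points), in the undifferentiated library (left) and the differentiated library (right). Igh at 85.7 and 81.4 and Igk at 74.2 and 68.6 per Mb sit at the bottom of their grey points, and Tcra/Tcrd and Tcrb sit inside theirs.

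CCAGG and CCTGG sites were also sparse in the loci. Their density in Igk was 16 per Mb in undifferentiated and 25.2 in differentiated cells, 6.87-fold and 6.37-fold below the rest of chromosome 6. Igh had 42.9 and 74.6 per Mb, 3.51-fold and 2.86-fold below its rest. Tcra/Tcrd was 2.10-fold and 2.41-fold below, and Tcrb 2.58-fold and 4.30-fold below. Igk therefore had the sparsest listing of the 4 loci for both kinds of motif. The number of CCGG, CCAGG and CCTGG motifs in the sequence of the loci was not analysed here, so a low density cannot be told apart from a low number of motifs.

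Listed sites were concentrated at the constant region end of Igh. The locus is read from the high to the low coordinates, so its constant genes come first along the chromosome. The 166.5 kb from Igha to Ighm, which hold the exons for the alpha, epsilon, gamma, delta and mu heavy chains, had 54 and 57 CCGG sites, or 324 and 342 per Mb. The adjoining 56.2 kb flank, beyond Igha, had 409 and 356 per Mb. The D and J segments lay in 104.1 kb with 173 and 144 per Mb, and the interval between them and the first V segment had 152 in each library. The proximal V segments, up to the first Ighv1 segment, had 83.5 and 75.8 per Mb, and the 1648.3 kb of distal V segments had 44.3 and 42.5 per Mb. Density was thus several-fold higher at the constant genes than along the V segments.

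V segments made up nearly all of Igk. This stretch of 3148.5 kb had 70.5 and 65.7 CCGG sites per Mb. The 45.8 kb with the J segments, Igkc and the flank had 11 and 6 sites, or 240 and 131 per Mb. No 100 kb window of Igk was without a listed CCGG site, and the windows held 3 to 13 in undifferentiated and 1 to 16 in differentiated cells.

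Tcra/Tcrd had 2 dense ends around a sparse middle. The middle is a block of V segments present in the mouse reference in 3 copies, whose segments carry the letters d, n or neither in their names. The stretch of the d copy had 15 CCGG sites in each library, or 37.6 per Mb. The n copy had 5 in each, or 17.1 per Mb, and the third copy 21 and 16, or 53.6 and 40.8 per Mb. The V segments before the block had 152 and 141 per Mb and those after it 169 and 130. The 148.7 kb from the end of Trdv4 to the end of Trac, with the D and J segments and both constant genes, had 64 sites in each library, or 430 per Mb. Of 18 windows of 100 kb, 3 held no listed CCGG site, at chr14:52800001-52900000, chr14:52900001-53000000 and chr14:53200001-53300000, all in the d and n copies. In the rest of chromosome 14, 38 of 1197 windows, or 3.17%, held none. How the deposited tables treated reads that align equally well to more than 1 copy was not given in the sources used here, so missing methylation and reads not placed cannot be told apart there. Without the d and n stretches the density of Tcra/Tcrd was 0.751 and 0.703 of that of the rest of chromosome 14, in place of 0.519 and 0.492.

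Tcrb showed the same concentration at its D, J and constant end. The 15 kb from Trbd1 to Trbc2 held 11 CCGG sites in each library, or 734 per Mb, although neither constant gene held a listed one. The V segments from Trbv2 to Trbv30 had 124 and 93.8 per Mb. The stretch between Trbv30 and Trbd1, where the mouse genome carries the trypsinogen genes that make pancreatic digestive enzymes, had 87.6 and 75.6 per Mb.

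**Figure D2:**
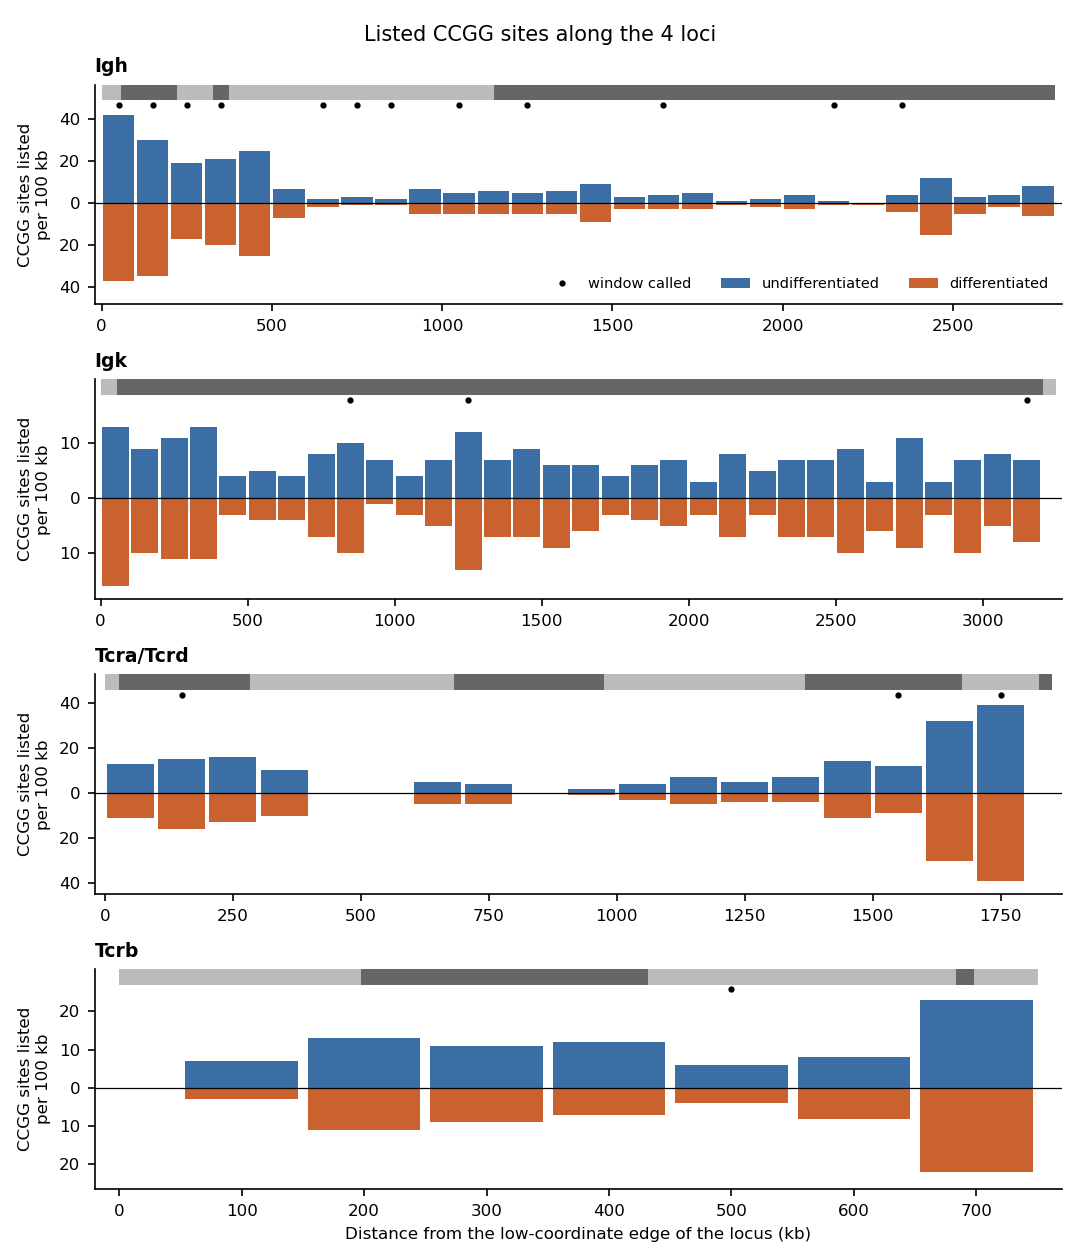
Number of listed CCGG sites in each full 100 kb window (y axis) along the 4 loci (x axis, distance in kb from the low-coordinate edge), with undifferentiated cells above and differentiated cells below the zero line. The grey bar on top alternates between the domains in the order given in the text, and black dots mark windows whose counts differed between the libraries. The first windows of Igh hold up to 42 sites and the last windows of Tcra/Tcrd up to 39, the middle of Tcra/Tcrd has windows with 0, and partial windows at the edges are not drawn.

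Most gene segments themselves held no listed CCGG site. In Igh, 14 of 119 V segments and 4 of 63 V pseudogenes held a site listed in either library. In Igk these were 9 of 102 and 5 of 60, in Tcra/Tcrd 6 of 119 and 1 of 17, and in Tcrb 2 of 22 and 1 of 13. None of the D segments, 20 in Igh and 2 each in Tcra/Tcrd and Tcrb, held one, and none of the 4 Igh or 5 Igk J segments did, while 2 of 62 in Tcra/Tcrd and 4 of 14 in Tcrb did. These segments are very short, and per length the V segments were not poorer in CCGG sites than their locus in Igh and Igk. The 14 sites in Igh V segments make 363 per Mb in each library, where the locus had 85.7 and 81.4, and the 6 and 8 sites in Igk V segments make 108 and 143 per Mb, where the locus had 74.2 and 68.6. In Tcra/Tcrd V segments the 6 and 5 sites make 93.6 and 78 per Mb, where the locus had 117 and 103. The 2 and 1 sites in Tcrb V segments make 187 and 93.5 per Mb, where the locus had 120 and 103. Among all V segments and pseudogenes of Tcra/Tcrd, 1 of 40 with d in the name held a CCGG site, 0 of 34 with n and 6 of 62 with neither.

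The V segments with the highest listed counts lay in Igh and Tcra/Tcrd. Ighv5-9 held 1 CCGG site, with 104 counts in undifferentiated and 220 in differentiated cells. The V pseudogene Ighv5-1 held 2, with 134 and 160 counts together, and Ighv8-11 had 57 and 104. In Tcra/Tcrd, Trav3-3 had 48 and 108 counts, Trav6-7-dv9, a segment usable by alpha and delta chains, had 65 and 77, and Trav4-2 had 26 and 38. The Igk and Tcrb segments were lower, at most 40 counts in a library. Igkv6-14 had 8 and 40, Igkv8-22 18 and 17, and Igkv6-15 18 and 14. The 3 highest in Tcrb were Trbv12-3 with 17 and 39, Trbv30 with 16 and 7, and Trbv21 with 10 counts in undifferentiated cells, unlisted in differentiated cells.

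Constant region genes were covered in Igh and in Tcra/Tcrd and not in Igk or Tcrb. Of 13 constant genes, 10 held a listed CCGG site in each library: all 8 in Igh, Trac and Trdc. Igkc, Trbc1 and Trbc2 held none. Ighm, which encodes the mu chain made first in B-cell development, had 3 sites with 69 and 96 counts, and Ighd, spliced from the same transcript, had 2 with 54 and 23. Among the gamma genes, Ighg2b had 156 and 235 counts, Ighg1 71 and 111, Ighg2c 47 and 75, and Ighg3 135 and 79. Ighe had 37 and 15 and Igha 72 and 30. Trdc had 46 and 63 counts over 2 sites, and Trac had 10 and 6 at 1 site. Sites were compared singly with Fisher's exact test (two-sided, Benjamini-Hochberg adjustment over all tested CCGG sites of the genome, threshold 0.05), with a site missing from 1 library given 4 counts there. Over the genome this called 23.5% of 763323 sites, 11.6% higher and 11.9% lower in differentiated cells. Of the 20 CCGG sites tested in constant genes, 5 were called higher and 5 lower, all in Igh. The called sites of Ighg1, Ighg2b and Ighg2c were higher, those of Igha, Ighe, Ighg3 and Ighd were lower, and Ighm had 2 higher and 1 lower. In Ighd the lower CCGG, at chr12:113414491, had 25 and 5 counts, while a CCAGG 85 bp away, at chr12:113414406, had 15 and 67.

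Of the 14 other genes listed for the loci, 4 held a listed CCGG site. Moxd2, a monooxygenase-like gene in the flank of Tcrb, had 34 and 65 counts over 3 and 5 sites. Dad1, a subunit of the oligosaccharyltransferase complex next to Tcra, had 105 and 42 counts over 4 sites inside the locus edge. Adam6a, a sperm surface metalloprotease-family gene between the Igh D and V segments, had 45 and 46, and Olfr1509 had the 24 and 20 counts of its promoter site. The 6 trypsinogen genes of the list (Prss1, Prss2, Prss3, Try4, Try5 and Try10) held no listed CCGG site in either library, and neither did Adam6b, Olfr1507, Olfr1508 and Olfr1510.

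The listed sites of Igk also had low counts. Their median CCGG count was 10 in each library, against 18 and 17 in the rest of chromosome 6, and 49.8% and 44.8% of the listed Igk CCGG sites lay under 10 counts, beside 23.5% and 26.3% in the rest. Of the 42 same-length stretches, 2 in undifferentiated and 3 in differentiated cells had a lower median. Low medians were shared by the stretches on either side of Igk: the 9 stretches from chr6:51350004 to chr6:87000005 outside the locus had medians of 9 to 13 in both libraries. In Igh the medians were 23.5 and 21, against 22 and 20 in the rest of chromosome 12, so its listed sites were few and not low. Tcra/Tcrd had medians of 19 and 15.5, against 18 and 17, and Tcrb 15 and 13. Counting only sites with at least 10 counts, the Igk density was 0.193 and 0.218 of the rest, in place of 0.294 and 0.291.

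The same CCGG sites tended to be listed in both libraries, least often in Igk. Of the undifferentiated sites, 83.3% in Igh, 63.5% in Igk, 75.5% in Tcra/Tcrd and 71.1% in Tcrb were also listed in differentiated cells. The rest of chromosomes 12, 6 and 14 gave 82.4%, 79% and 78.8%. The 95% Wilson interval of Igk, 57.2% to 69.3%, lay below the value of its rest. Read from the differentiated side the shares were 87.7%, 68.6%, 85.8% and 83.1%, beside 86.2%, 84.4% and 85% in the rest of chromosomes 12, 6 and 14. On this side too the interval of Igk, 62.2% to 74.3%, lay below its rest, while those of the other 3 loci held the value of their rest. In Igk the sites with 5 to 9 undifferentiated counts were found again in 55.8% of cases, close to the 55.7% of such sites in the rest of chromosome 6, and those with 10 to 19 counts in 66.7% against 75.9%. Of the Igk sites with 5 to 9 differentiated counts, 48% (38.5% to 57.7%) were listed in undifferentiated cells, against 62.4% in the rest.

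Summed over each locus, CCGG counts differed little between the libraries. Igh had 8353 counts in undifferentiated and 8245 in differentiated cells, Igk 2887 in each, Tcra/Tcrd 4818 and 4152, and Tcrb 1490 and 1419. Scaled to the rest of the same chromosome, the log2 ratio of differentiated over undifferentiated counts was -0.01 for Igh (95% counting interval -0.05 to 0.03), 0.05 for Igk (-0.03 to 0.12) and -0.02 for Tcrb (-0.13 to 0.08). These 3 intervals hold 0, which depended on the setting. Scaled by the whole-library CCGG total Igh had 0.0688 (0.03 to 0.11) and by the median ratio -0.0875 (-0.13 to -0.04), Igk with at least 10 counts had 0.16 (0.07 to 0.25), and Tcrb with both edges moved in by 100 kb had -0.23 (-0.38 to -0.08). Tcra/Tcrd was lower in differentiated cells, at -0.15 (-0.21 to -0.09), and 8 of the 64 stretches of chromosome 14 had a lower ratio, within a range of -0.44 to 0.33. The V segments of Tcra/Tcrd alone had a ratio of -0.03, and with both edges moved in by 100 kb the locus had -0.02.

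Domains within the loci differed in their ratios, and several of these ratios rest on 1 site. In Igh the flank beyond Igha had 997 and 645 counts and a log2 ratio of -0.62 (-0.76 to -0.48). Of its 23 tested CCGG sites, 1 was called higher and 7 lower, where 11.6% and 11.9% of all tested sites were. The interval between the D and V segments was at -0.37 (-0.62 to -0.12), and at -0.06 (-0.34 to 0.22) without the site at chr12:113543159. The constant genes, at 0.12 (0.03 to 0.21), and the D and J segments, at 0.26 (0.09 to 0.42), lay on the other side of 0. Without the site of each with the most counts they were at 0.08 (-0.01 to 0.17) and 0.19 (0.01 to 0.37). The proximal V segments had 0.13 (0.05 to 0.20), but 0.06 (-0.03 to 0.14) without chr12:113595109, which had 433 and 578 counts. The distal V segments had -0.14 (-0.24 to -0.04), but 0.01 (-0.09 to 0.12) without chr12:115602485, which had 271 and 85, so each of these differences rests on that site. In Igk the J, constant and flank stretch, with 110 and 73 counts, was at -0.54 (-0.97 to -0.12), and at -0.33 (-0.77 to 0.11) without chr6:70733581. In Tcra/Tcrd the lowest ratio was that of the flank with Dad1, with 256 and 126 counts and -0.96 (-1.26 to -0.65). The D, J and constant stretch was at -0.27 (-0.38 to -0.16) and the V segments after the copied block at -0.24 (-0.37 to -0.10). In Tcrb the D, J and constant stretch had 236 and 276 counts and 0.27 (0.02 to 0.52), or 0.06 (-0.22 to 0.34) without chr6:41534310, and the trypsinogen stretch beside it 292 and 210 and -0.43 (-0.68 to -0.17). The Tcrb V segments were at -0.22 (-0.41 to -0.04). The Tcrb stretch before them was at 0.33 (0.11 to 0.55), but at 0.20 (-0.03 to 0.43) without chr6:41006542. Ratios were recomputed without the site with the most counts and without the site with the largest difference in counts. The flank beyond Igha, the 3 Tcra/Tcrd stretches, the trypsinogen stretch and the Tcrb V segments stayed below 0 in both, intervals included. The Igh D and J segments stayed above 0 in the same way.

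**Figure D3:**
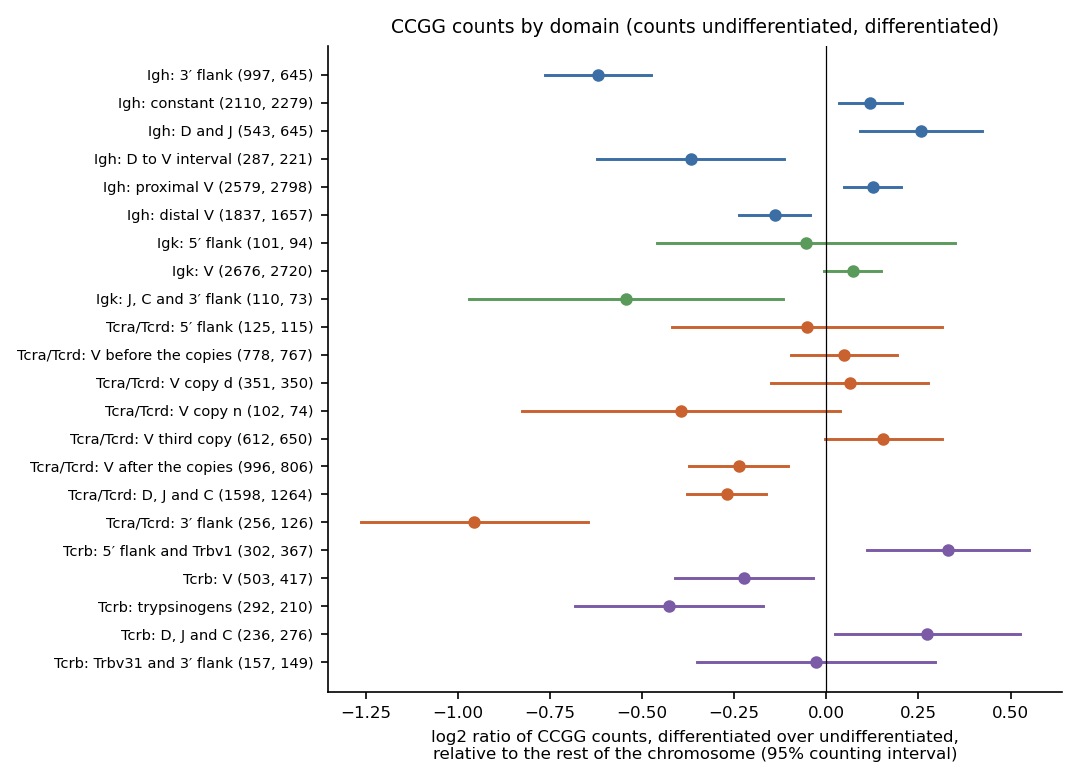
Log2 ratio of summed CCGG counts, differentiated over undifferentiated and relative to the rest of the chromosome (x axis, with 95% counting intervals as lines), for each domain of the 4 loci (y axis, with both counts). The flanks of Igh at -0.62 and of Tcra/Tcrd at -0.96 are the lowest points, and the Igk V segments, at 0.07, lie near 0.

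Windows of 100 kb were compared by the same test, adjusted over all 25214 tested windows of the genome, which called 36.2% of them, 22.7% higher and 13.4% lower in differentiated cells. In Igh, 12 of 26 tested windows were called, 7 higher and 5 lower. In Igk 3 of 32 were called, all higher, in Tcra/Tcrd 1 higher and 2 lower of 14, and in Tcrb 1 lower of 7. The share in Igh, 46.2%, rests on few windows and was not above the background under every scaling. By the median ratio, 3 Igh windows were higher and 6 lower, where 7.56% and 33.3% of all windows were, and without the 1000 highest sites 3 were higher and 5 lower, where 17.2% and 17.1% of all windows were. The highest window of Igh began at chr12:113800001, within the proximal V segments, with 50 and 99 counts over 2 sites (log2 ratio 1.07, adjusted p = 0.000117, Fisher's exact test). Its lowest began at chr12:114000001, with 57 and 17 counts (-1.35, adjusted p = 0.00098, Fisher's exact test). Log2 ratios of windows count each unlisted site as 4. In the other loci the called extremes were chr6:70600001 in Igk with 55 and 91 counts (0.62), chr14:53900001 in Tcra/Tcrd with 238 and 136 (-0.60) and chr6:41300001 in the trypsinogen stretch of Tcrb with 87 and 30 (-1.11). The extreme Igh windows rest on at most 2 listed CCGG sites.

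Over whole loci the share of CCGG sites called by Fisher's exact test differed. In Igh 89 of 254 were called, or 35%, with 45 higher and 44 lower, against 27.3% in the rest of chromosome 12 and the 23.5% of all sites. In Igk 34 of 276 were called, or 12.3%, with 22 higher and 12 lower, against 24.1% in the rest of chromosome 6. Tcra/Tcrd had 54 of 230 called, 21 higher and 33 lower, and Tcrb 18 of 100, 9 each way. The loci together had 97 higher and 98 lower of 860, or 22.7%, near the background. The share called moved with the counts per site: 57.2% of tested Igk sites had a summed listed count under 20, against 25.6% in Igh, and of the Igk sites with 10 to 19 summed counts, 1.34% were called. Between 20 and 39 counts, 25.5% of Igk and 36.4% of Igh sites were called, against 32.5% and 35.1% in the rest of chromosomes 6 and 12. At 40 to 79 counts 50.8% of the 59 Igh sites were called, against 34.5% in the rest of chromosome 12.

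The sites with the most counts in Igh included large differences in each direction. The highest, at chr12:113595109, 2339 bp from Ighv5-4, had 433 and 578 counts, 5.18% and 7.01% of all CCGG counts of the locus (log2 ratio 0.50, adjusted p = 3.22e-06, Fisher's exact test). A site at chr12:115602485, 1455 bp from Ighv1-67, went the other way, with 271 and 85 counts (-1.59, adjusted p = 2.15e-17, Fisher's exact test). In the same V domain, chr12:115615732 had 41 and 203 counts (2.40, adjusted p = 5.08e-25, Fisher's exact test). Sites at chr12:113607727 near Ighv2-3, chr12:113690748 near the pseudogene Ighv5-11 and chr12:113212729 in the flank had 86, 78 and 71 counts in undifferentiated cells and 6 each in differentiated cells, 13.5-fold, 12.2-fold and 11.1-fold lower. The site in Ighg2b, at chr12:113305168, had 156 and 221 counts and was called higher (0.59, adjusted p = 0.00122, Fisher's exact test). Neighbouring sites of Igh thus differed in opposite directions.

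In the other loci the called sites had lower counts. Called sites with large differences in Igk were at chr6:70435077 in Igkv6-14, with 8 and 40 counts (5.31-fold higher, adjusted p = 3.36e-05, Fisher's exact test), at chr6:70221297 near Gm46962, unlisted in undifferentiated cells and with 23 counts in differentiated cells (at least 6.11-fold higher, since 4 counts stand for unlisted), and at chr6:67746995, with 32 counts and then unlisted (at least 7.53-fold lower). Other called Igk sites were chr6:70072119 and chr6:69830911, with 29 and 27 counts and then unlisted (at least 6.82-fold and 6.35-fold lower), and chr6:67745277 with 5 and 26 (5.53-fold higher). The 3 sites with the most counts in Igk, at chr6:67673493 with 81 and 88, chr6:70220876 with 44 and 42 and chr6:69789162 with 35 and 45, were not called. In Tcra/Tcrd the Trav3-3 site at chr14:53666344, with 48 and 108 counts, was called higher (2.39-fold, adjusted p = 1.24e-05, Fisher's exact test), and so was chr14:52718744 in the d copy, with 42 and 93. A site 209 bp from Traj21, at chr14:54198581, had 36 counts and was then unlisted (at least 8.47-fold lower), and a site in Dad1, at chr14:54245849, had 47 and 6 (7.37-fold lower). In Tcrb the site with the most counts, chr6:41550706, 2525 bp beyond Trbc2, had 25 and 73 counts (3.10-fold higher, adjusted p = 1.4e-05, Fisher's exact test), and a site 13 bp from Trbj1-3, at chr6:41534310, had 29 and 67 (2.45-fold). The site chr6:41568150, beyond Trbv31, had 50 and 8 (5.88-fold lower).

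CCGG sites inside V segments and V pseudogenes were called in 1 direction only under this scaling. Of 42 tested, 9 were called higher in differentiated cells and 0 lower, where 11.6% and 11.9% of all tested sites were. The 9 were in Ighv5-2, Ighv5-9, Ighv5-19, Ighv13-2, Ighv8-11, Igkv6-14, Igkv6-20, Trav3-3 and Trbv12-3, a grouping chosen after the values were seen. Their counts included 12 and 33 in Ighv5-2, 30 and 65 in Ighv5-19 and 15 in differentiated cells only in Igkv6-20. The median log2 ratio of the 42 was 0.22, against 0.02 over all tested sites. Of the 42, 26 were above 0, where 50.7% of all tested sites were. Summed, the 42 had 941 and 1252 counts. With the libraries scaled by the median ratio of sites listed in both, which lowers every log2 ratio by 0.16, 7 of the 42 were called higher and 2 lower, and over the 4 loci 73 of 860 sites were higher and 121 lower. At that scaling 8.43% of all tested sites were called higher and 15% lower.

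**Figure D4:**
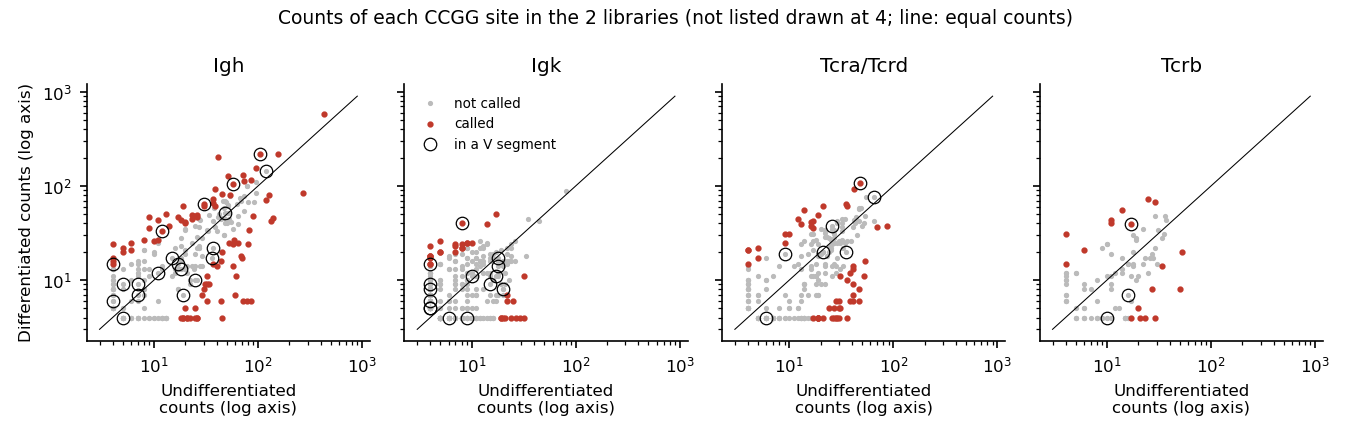
Counts of each CCGG site in the undifferentiated library (x axis, log scale) against the differentiated library (y axis, log scale) in the 4 loci, with called sites in red, sites not called in grey and sites inside V segments circled; a site missing from 1 library is drawn at 4. Igh spreads widest and up to 433 and 578 counts, most Igk sites lie under 20 in each library, and the circled sites that are red lie above the line of equal counts.

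The share of counts at CCAGG and CCTGG sites was higher in differentiated cells in all 4 loci, by different amounts. In Igh it was 17% (95% Wilson interval 16.3 to 17.7) in undifferentiated and 27.1% (26.3 to 27.9) in differentiated cells, 10.1 percentage points more, where the rest of chromosome 12 went from 21.1% to 28%, 6.85 points more. Of the 40 same-length stretches, 39 had a smaller difference. In Igk it was 13.2% (12.1 to 14.4) and 21.2% (19.9 to 22.6), 7.98 points, beside 7.39 in the rest of chromosome 6, with 14 of 42 stretches larger. In Tcra/Tcrd it was 17.3% (16.4 to 18.3) and 21.4% (20.3 to 22.5), 4.08 points, beside 7.18 in its rest, with 3 of 64 stretches smaller. In Tcrb it was 14.4% (12.8 to 16.1) and 17.9% (16.1 to 19.8), 3.46 points, with 11 of 189 stretches smaller. Igh thus lay above the rest of its chromosome and the T-cell receptor loci below, while the interval of Igk, 6.23 to 9.74 points, held the value of its rest. Some of these counts can come from fragments also counted at a CCGG, which the shares and intervals do not take into account. Sites up to 16 bp from a listed CCGG site held 682 of 1708 such counts in undifferentiated and 985 of 3067 in differentiated Igh. These were 177 of 440 and 287 of 777 in Igk. In Tcra/Tcrd they were 420 of 1010 and 322 of 1131, and in Tcrb 54 of 251 and 23 of 309. The order of the loci depended on the setting. With both edges moved in by 100 kb the Tcrb difference was 9.69 points, and with only CCAGG and CCTGG sites over 100 bp from a CCGG site it was 4.8 points in Igk, 5.61 in Tcra/Tcrd and 6.6 in Tcrb. Relative to the CCAGG and CCTGG counts of the rest of the chromosome, the log2 ratio was 0.32 (0.23 to 0.40) in Igh, 0.25 (0.08 to 0.42) in Igk, -0.39 (-0.51 to -0.27) in Tcra/Tcrd and -0.27 (-0.51 to -0.03) in Tcrb. Over sites listed in both libraries the difference was 4.79 points in Igh, 2.29 in Igk and 0.60 in Tcra/Tcrd, smaller than over all listed sites, and 5.03 in Tcrb, which is larger. The 95% interval of the Tcra/Tcrd value, -0.88 to 2.08 points, holds 0. Values for the rest of the chromosomes are for all listed sites only, so differences under the other settings were not compared with the rest.

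**Figure D5:**
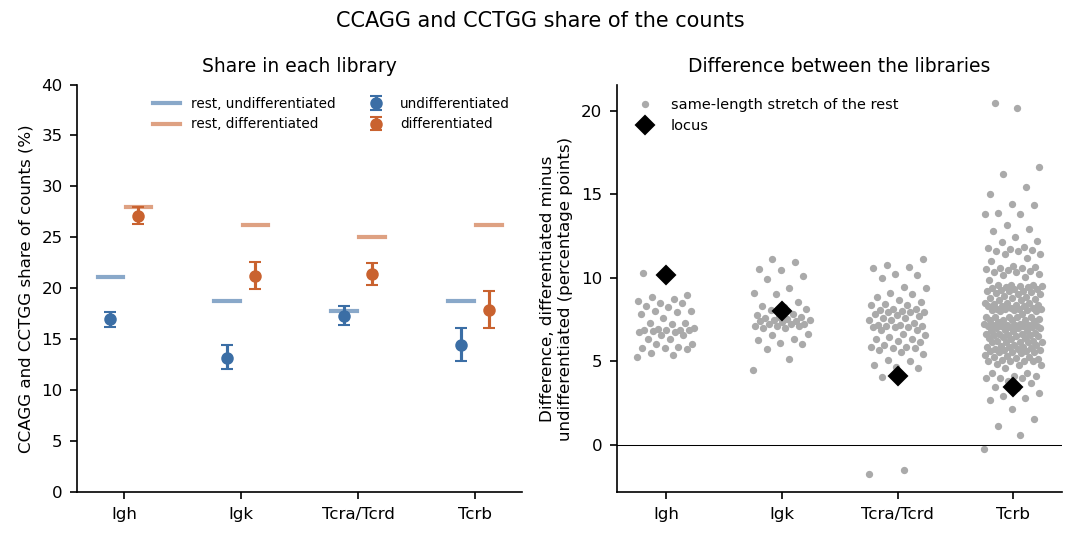
Left: share of the counts of each locus at CCAGG and CCTGG sites (y axis, percent; points with 95% Wilson intervals) in each library, with bars for the rest of the chromosome. Right: difference between the libraries in percentage points (y axis) for each locus (diamonds) and for same-length stretches of the rest of its chromosome (grey points). Igh at 10.1 points lies near the top of its grey points and Tcra/Tcrd at 4.08 near the bottom.

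Within Igh the distal V segments and the constant genes had the highest ratios of CCAGG and CCTGG counts. The distal V segments had 173 CCAGG and CCTGG counts at 13 sites in undifferentiated and 510 at 38 sites in differentiated cells, a share of 8.61% and 23.5% and a log2 ratio of 1.03. The constant region had 529 counts at 50 sites and 1059 at 86 (log2 ratio 0.47), and inside its 8 genes alone the counts were 166 and 419. The proximal V segments had 514 and 802 counts (0.11). In Tcrb the D, J and constant stretch went the other way, with 53 counts at 6 sites and 11 at 1 site. Some of the 6 sites can share fragments. The CCAGG at chr6:41543839, with 15 counts and then unlisted, lies 6 bp from a CCGG with the same counts. The sites chr6:41543890, chr6:41543898 and chr6:41543919 lie close together, with 6 counts each and then unlisted. Sites more than 100 bp from any listed CCGG site held 710 of the 1708 such counts in Igh in undifferentiated and 1701 of 3067 in differentiated cells.

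Few CCAGG and CCTGG sites were called singly. Tested against the CCAGG and CCTGG total, 5.72% of 454331 sites of the genome were called, 1.18% higher and 4.53% lower in differentiated cells. In Igh 14 of 204 were called, 8 higher and 6 lower, in Tcra/Tcrd 8 of 103 and in Tcrb 2 of 37, all lower. In Igk 0 of 73 were called by Fisher's exact test, and 5, or 6.85%, had an unadjusted p under 0.05, 2 higher and 3 lower, where 4.66% of all tested CCAGG and CCTGG sites were higher and 13.4% lower at that level. The site with the most counts in Igh, a CCAGG in Ighv5-1 at chr12:113573179, had 120 and 144 counts and was not called, and the next, 209 bp from Ighv5-6 at chr12:113626010, had 51 and 125 (log2 ratio 0.76, adjusted p = 0.0304, Fisher's exact test). The first lies 10 bp from a CCGG of Ighv5-1 with 119 and 143 counts, so that the same fragments can carry both motifs. In Tcra/Tcrd a CCTGG at chr14:53580279, near the pseudogene Trav3-2, had 65 and 43 counts and was called lower (-1.13, adjusted p = 0.00387, Fisher's exact test). Against the CCGG total in place of their own, 22 of the 204 Igh sites were called higher and 0 lower, and in Tcra/Tcrd 6 and 4 of 103, where 6.03% of all tested sites were higher and 1.28% lower.

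Fewer sites were full matches in Igh and Tcra/Tcrd than in the rest of their chromosomes. Full-match alignments made up 88.3% (95% Wilson interval 84.6 to 91.3) of the Igh sites in undifferentiated and 90.6% (87.5 to 93) in differentiated cells, against 98.2% and 98.3% in the rest of chromosome 12, and none of the 40 same-length stretches was as low. In Tcra/Tcrd the shares were 92.2% (88.5 to 94.7) and 91.7% (88 to 94.4), against 96.9% and 97.1%, with 11 and 7 of 64 same-length stretches lower. In Igk all 293 and 305 sites were full matches, and in Tcrb 121 of 122 and all 105. Nearly all the others were soft-clipped, 42 of 42 in undifferentiated and 39 of 41 in differentiated Igh. Within Igh the distal V segments had the lowest share, 75.6% and 85.2%. All 30 Igh positions and 16 Tcra/Tcrd positions that were listed in both libraries with an alignment other than a full match had the same alignment type in both. With full-match sites alone the Igh density was 0.268 and 0.276 of its rest, its CCGG log2 ratio was 0.0468, its share difference was 9.92 points, and 44 of 216 CCGG sites were called higher and 36 lower, where 11.6% and 11.9% of all full-match sites were.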

How the data were processed

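The 2 deposited tables of methylRAD sites were used, 1 library of undifferentiated and 1 of differentiated F9 cells. Per the submitters' processing notes, FastQC 0.11.3, Bowtie2 2.3.3 and the build GRCm38 were used; the handling of reads with several placements is not given in the sources used here. The deposited counts are whole numbers of reads per site, with a lowest value of 5, and the deposited RPM column, treated as a score because its sum exceeds that of a per-million scale, was not used. Positions are the first base of the motif: 10835 of 10958 listed sites inside RefSeq promoter windows (98.9%) had the motif there. Genes came from the RefSeq table of GRCm38.p6.

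A site listed in 1 library was given 4 counts in the other for tests, and 0 for sums and densities. Sites whose counts summed to 10 or more, and 100 kb windows to 50 or more, were compared by two-sided Fisher's exact tests with Benjamini-Hochberg adjustment over the genome. At 50 positions the motif differed between libraries and was left out, 0 of them in the loci. Locus sums were scaled to the rest of the chromosome. Wilson, Poisson and log2 intervals are at 95%. The tests were also run on simulated data. No result of that run is given here, and the calls do not rest on it. Python 3.11.15, numpy 2.4.6, scipy 1.17.1, pandas 2.3.3 and matplotlib 3.10.9 were used.

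The loci, domains and gene lists were chosen with earlier results of these data known. Named per locus were, among called CCGG sites, the 3 largest and 3 smallest log2 ratios, the 3 CCGG and 2 other sites with the highest summed count, the extreme windows, the constant and other listed genes, and the 3 V segments with the most CCGG counts; of these the text gives a selection. Alternatives concerned scaling, unlisted sites, minimum counts, alignment type, the highest sites, edges, window size and thinning of the larger library. Those on empty windows, the d and n copies, V domains alone and domains without 1 site were added after seeing the data.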

Additional observations from a re-analysis of the deposited data

How the results depend on the processing

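Of 322 values recomputed under alternatives, 224 stayed within the counting interval of the reported value or within 1.5 times the reported count, 96 moved beyond that, and 2 changed sign from a value whose interval left out 0. Of the whole-locus CCGG log2 ratios and share differences, none whose interval left out 0 changed sign. Of the domain CCGG log2 ratios, recomputed only without 1 site, that of the distal V segments of Igh did, at 0.0141 without chr12:115602485, which is both the site with the most counts and that with the largest difference. The domain and CCAGG and CCTGG log2 ratios were not recomputed under the other settings. With both edges moved in by 100 kb the CCGG density relative to the rest was 0.265 and 0.27 in Igh, 0.393 and 0.371 in Tcra/Tcrd and 0.361 and 0.301 in Tcrb (undifferentiated, then differentiated), the log2 ratios were 0.0609 in Igh, -0.0235 in Tcra/Tcrd and -0.23 in Tcrb, the Tcrb share difference was 9.69 points, 19 of the 156 Tcra/Tcrd sites left were lower and 4 of the 54 Tcrb sites left higher, where 11.9% and 11.6% of all sites were. With the edges moved out the density was 0.427 and 0.432 in Igh and 0.557 in differentiated Tcrb, and the share differences were 7.8 points in Igh and 6.11 in Tcrb. With at least 10 counts the Igk density was 0.193 and 0.218 and its log2 ratio 0.16, the share differences were 8.7, 5.99 and 1.88 points in Igh, Igk and Tcra/Tcrd, and the overlap was 81.2% of differentiated Igh, 52.9% and 52% of Igk and 67.3% of undifferentiated Tcra/Tcrd sites. With full-match alignments only, the undifferentiated Igh density was 0.268 and its log2 ratio 0.0468. Without the d and n copies the Tcra/Tcrd density was 0.751 and 0.703, and in V domains alone the log2 ratios were -0.0336 in Tcra/Tcrd and -0.22 in Tcrb. Scaled by the whole-library CCGG total the log2 ratio of Igh was 0.0688.

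Scaled by the median ratio, which lowers log2 ratios against the whole library by 0.16, they were -0.0875, -0.0687, -0.28 and -0.14 in Igh, Igk, Tcra/Tcrd and Tcrb. Under it 8.43% of all CCGG sites were called higher and 15% lower, with 19 lower in Igk and 15 lower in Tcrb, and of windows 7.56% and 33.3%, with 3 higher in Igh, 0 higher and 2 lower in Igk, and 0 higher and 4 lower in Tcra/Tcrd. Without the 1000 highest sites the Igh log2 ratio was -0.0678 and its share difference 12.3 points, and 3 windows of Igh and 1 of Igk were higher, where 17.2% of all windows were. Over sites listed in both libraries the Igk log2 ratio was 0.15, the share differences were 4.79, 2.29 and 0.60 points in Igh, Igk and Tcra/Tcrd, the CCGG sites called lower were 4 of 153 in Igk, 21 of 163 in Tcra/Tcrd and 5 of 64 in Tcrb, where 10.4% of all were, and of CCAGG and CCTGG sites 5 of 86 were higher in Igh and 0 of 11 lower in Tcrb, where 2.14% and 8.15% of all were. With only CCAGG and CCTGG sites over 100 bp from a CCGG site, share differences were 4.8 points in Igk, 5.61 in Tcra/Tcrd and 6.6 in Tcrb.

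With unlisted sites given 0, which called 18.1% of all CCGG sites higher and 20.7% lower, 38 were higher and 39 lower of 206 in Igk and 18 each of 84 in Tcrb. Of CCAGG and CCTGG sites 22.8% were then higher and 16.6% lower over the genome, and 36 and 13 of 120 in Igh, 6 and 2 of 36 in Igk, 7 and 13 of 61 in Tcra/Tcrd and 2 and 4 of 15 in Tcrb. Of windows 18.8% were then lower over the genome, with 1 of 32 in Igk and 2 of 7 in Tcrb. Against the CCGG total, which called 6.03% of all CCAGG and CCTGG sites higher and 1.28% lower, they numbered 22 and 0 in Igh, 2 higher in Igk, 6 and 4 in Tcra/Tcrd and 6 and 0 in Tcrb. In 50 kb windows, of which 19.9% were higher and 13.9% lower over the genome, higher and lower numbered 5 and 2 of 52 in Igk, 4 and 6 of 25 in Tcra/Tcrd and 2 and 2 of 13 in Tcrb. The causes of these differences between settings were not tested. No paired analysis was possible because each state has 1 library. With 1 library per state the spread between cultures is unknown, and sites under the minimum of 5 counts are not seen. In Igk 49.8% and 44.8% of listed CCGG sites lay under 10 counts.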
